A study of Mus musculus with 19 samples.

Results

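Fibroblast growth factor (FGF) ligands and receptors were followed as 10 genes of the 46078 in the deposited table, picked by gene symbol: the ligand genes Fgf1, Fgf2, Fgf7, Fgf10, Fgf13 and Fgf18 and the receptor genes Fgfr1, Fgfr2, Fgfr3 and Fgfr4. Bulk RNA-seq of female mouse mammary tissue gave 19 libraries in 5 groups. MG-WT held 3 glands of wild-type mice, and the other groups, with 4 libraries each, came from tumor-bearing mice that all carried MMTV-neu, a transgene driving the HER2 ortholog in mammary epithelium. The study states a mixed FVB/C57/BALB/c background for its MMTV-neu mice and no background for the wild-type mice. MG-N and T-N are the gland and the tumor of N mice, and MG-NP and T-NP are the gland and the tumor of NP mice, which carried MMTV-neu;p53wm-R172H/+;Fsp-Cre, so that Cre made in fibroblasts turns a wild-type p53 allele into the R172H mutant. MG-N replicate 1 and all 4 T-N libraries were MMTV-neu;Fsp-Cre, whereas MG-N replicates 2 to 4 were MMTV-neu;p53wm-R172H/+ without Cre. The glands of N and NP mice were taken without malignant lesions, and the wild-type glands came from age-matched mice, with no age stated in the sources used here. The library names of T-NP replicates 1 and 2 share a number, and nothing in the sources says whether they came from the same animal. The study calls the libraries of a group biological replicates but no source used here names the animal behind each library, so p-values measure the spread between these libraries.

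FGF ligands bind receptor tyrosine kinases at the cell surface together with heparan sulfate, or with a Klotho co-receptor for the endocrine ligands, and the bound receptor signals through FRS2 and RAS to ERK. ERK raises the transcription factors Etv4 and Etv5 and the feedback inhibitors Dusp6, Sprouty and Spred. In the mammary gland the stroma makes Fgf10 and Fgf7, which act on the epithelial splice form of Fgfr2, and this exchange is known for its part in forming the mammary bud and the ducts. Fgf13 differs from the other 5 ligands because it stays inside the cell, where it binds sodium channels and microtubules, and it does not act through the receptors.

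The MG-WT libraries stood apart from the rest before any FGF gene was examined. They held 54677315 to 62645459 recovered reads, against 20899152 to 27262440 in the 16 others, and the summed normalized count of 6 immediate early genes, such as Fos and Egr1, was 305885 to 393932 against 1816 to 6982 elsewhere. The 8 white adipocyte markers summed to 1198 to 1608 in MG-WT, 291498 to 460151 in MG-N and 158913 to 425895 in MG-NP. Only 2 of these 8 markers reached 10 counts in every MG-WT library, although none was at 0 in the whole group, so white adipocyte marker transcripts were scarce in the libraries labelled as wild-type gland. In tumors the same sum was 260.2 to 7494 in T-N and 728 to 2151 in T-NP. The 10 skeletal muscle markers summed to 340718, 2494301, 10623 and 1361647 in MG-NP replicates 1 to 4, against 335 to 15294 in MG-N, and made up 7.28% of all reads in MG-NP replicate 2. Erbb2, the mouse ortholog of the rat transgene, ranged from 1845 to 14718 in the glands of all 3 groups and from 73426 to 155042 in the tumors, in which every library was above every gland. The plot of marker scores shows these differences library by library, and because the tissue is bulk, fewer cells of a type and less RNA per cell cannot be told apart in any result below.

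**Figure D1:**
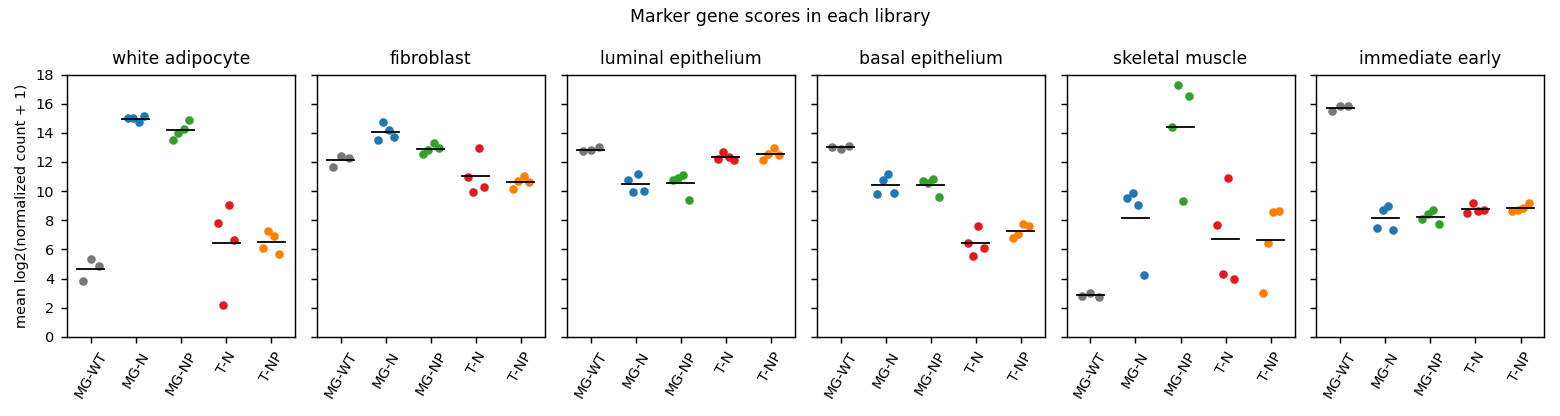
Mean log2(normalized count + 1) over the genes of 6 marker lists (vertical axis) in each of the 19 libraries (points, by group on the horizontal axis), with the group mean as a line. White adipocyte scores were 3.82 to 5.33 in MG-WT and 14.74 to 15.13 in MG-N, and immediate early scores were 15.47 to 15.86 in MG-WT and at most 9.20 in every other library.

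Among the ligands, Fgf10 moved the most. This ligand gene lies at chr13:118669791-118792115 on the plus strand (GRCm38), and 123 bases of its exons overlap the antisense gene Gm16263. Its normalized count was 56.7, 105 and 78.5 in MG-WT. MG-N libraries had 1467, 1410.2, 965 and 1616, and MG-NP libraries had 347, 589.5, 585 and 554. Each library of the glands of tumor-bearing mice was therefore above each MG-WT library, and each MG-N library was above each MG-NP library. In tumors it was 13.6, 10.5, 15.2 and 8.17 in T-N and 4.49, 4.88, 11.7 and 8.74 in T-NP, below every gland. On the log2(normalized count + 1) scale, on which all fold changes are given, the limma fit put Fgf10 higher in MG-N than in MG-WT by 4.09 ± 0.25 (SE; adjusted p = 8.39e-06), a 17.0-fold difference, and higher in MG-NP than in MG-WT by 2.69 ± 0.29 (adjusted p = 5.83e-04). The tumors were lower than the matching glands by 107-fold in N mice (log2 -6.74, 95% interval -7.35 to -6.12, adjusted p = 9.13e-06) and by 64-fold in NP mice (log2 -6.00, interval -6.80 to -5.20, adjusted p = 9.54e-06). Fgf10 and Fgf13 were singled out by the study in these same libraries, so their directions here are not independent evidence.

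Fgf7, the other stromal ligand of the epithelial Fgfr2 form, lies at chr2:126034658-126091185 on the plus strand and no other annotated exon overlaps it. Its group means stood in the same order as those of Fgf10. Its normalized count was 56.7, 73.7 and 74.9 in MG-WT. The MG-N libraries had 237, 225, 159.7 and 145, and the MG-NP libraries 137, 139.9, 80.2 and 182. In tumors it was 44.3, 22.1, 72.7 and 26.8 in T-N and 63.9, 46.4, 32.5 and 21.2 in T-NP. Every T-N library was below every MG-N library and every T-NP library was below every MG-NP library, while the T-N and T-NP ranges each overlapped that of MG-WT. Fgf7 was 2.74-fold higher in MG-N than in MG-WT (log2 1.45, limma adjusted p = 0.0012), whereas its difference of 0.92 between MG-NP and MG-WT stayed under 2-fold (adjusted p = 0.0458). It fell 4.92-fold from MG-N to T-N (adjusted p = 0.00173) and 3.35-fold from MG-NP to T-NP (adjusted p = 0.00589).

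The 250 bases upstream of the RefSeq start (GRCm38.p6) are shown for these 2 ligand genes because they fell in both kinds of tumor, have a single RefSeq start whose first bases are found in a GENCODE transcript, and meet no annotated exon in the window. No other member met all of these conditions. Capitals mark matches on either strand to the GC box GGGCGG, which is held by 32.7% of all 32851 such windows. TATAAA (12.4% of windows), CCGGAA (12%), TGACTCA (4.5%), CACGTG (6.0%) and the p53 half-site (7.1%) were also searched on both strands and had no match in either window.
Fgf7, chr2:126034408-126034657, plus strand: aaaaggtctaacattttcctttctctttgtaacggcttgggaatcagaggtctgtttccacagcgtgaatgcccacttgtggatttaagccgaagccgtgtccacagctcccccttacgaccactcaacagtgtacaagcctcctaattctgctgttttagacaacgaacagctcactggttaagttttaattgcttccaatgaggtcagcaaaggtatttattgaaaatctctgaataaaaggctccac
Fgf10, chr13:118714449-118714698, plus strand: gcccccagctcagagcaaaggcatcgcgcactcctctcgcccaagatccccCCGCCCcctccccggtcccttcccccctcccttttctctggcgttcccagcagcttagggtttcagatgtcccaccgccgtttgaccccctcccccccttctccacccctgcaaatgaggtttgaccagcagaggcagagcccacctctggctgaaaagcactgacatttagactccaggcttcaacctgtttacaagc
The Fgf7 window was 43.6% G and C and had no match to any of the 6 motifs. The Fgf10 window was 61.2% G and C, with the median of all windows at 52.4%, and held 1 GC box on the minus strand, 199 to 194 bases before the start.

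Fgf2, a ligand without a classical secretion signal that binds all 4 receptors, lies at chr3:37348346-37410108 on the plus strand. Its exons overlap Nudt6 on the other strand and Gm43439 on the same strand over 895 bases, and without a stated strand setting in the counting, reads there cannot be assigned with certainty. Its normalized count was 359.9, 494 and 324 in MG-WT, while MG-N had 2042, 2165, 1982 and 946.5 and MG-NP had 657, 1896, 736.5 and 1212.5. The tumor counts were 315, 30.6, 184 and 42.0 in T-N and 67.3, 58.55, 147 and 127 in T-NP, below every gland. MG-N exceeded MG-WT 4.38-fold (limma adjusted p = 5.23e-04) and MG-NP exceeded MG-WT 2.65-fold (adjusted p = 0.0197), and the MG-N and MG-NP ranges overlapped. The call for MG-NP over MG-WT was lost without MG-WT replicate 1 (adjusted p = 0.0688) or replicate 3 (adjusted p = 0.0758). Fgf2 fell 18-fold from MG-N to T-N (log2 -4.17, interval -5.80 to -2.54, adjusted p = 0.00169) and 11-fold from MG-NP to T-NP (log2 -3.46, interval -4.41 to -2.50, adjusted p = 2.31e-04).

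Fgf1, a further ligand that binds all 4 receptors and lacks a classical secretion signal, behaved differently. It lies at chr18:38838673-38929472 on the minus strand. It was highest in MG-WT, at 1976, 1700.1 and 1801, and every library of the other groups was lower. MG-N had 479, 711, 1066 and 641, whereas MG-NP had 789, 1303, 770.1 and 1119.6. In tumors they were 293, 839, 573 and 738 in T-N and 247, 198, 601 and 709 in T-NP, so that T-N overlapped MG-N and T-NP lay just below MG-NP. Fgf1 was 2.62-fold lower in MG-N than in MG-WT (limma adjusted p = 0.00151) and 1.88-fold lower in MG-NP (adjusted p = 0.0116, under the 2-fold threshold). Between tumor and gland it differed by -1.35 in NP mice (interval -2.32 to -0.39, adjusted p = 0.0243), and by -0.29 in N mice (interval -1.11 to 0.53, adjusted p = 0.523). The NP call was lost when the 2 T-NP libraries with a shared number were averaged (log2 -1.09, adjusted p = 0.0608), and without MG-NP replicate 2 (adjusted p = 0.0611), MG-NP replicate 4 (0.0528), T-NP replicate 1 (0.0648) or T-NP replicate 2 (0.0582).

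Fgf13, the intracellular member, lies at chrX:59062145-59568071 on the minus strand. Its normalized count was 218, 266 and 243 in MG-WT. MG-N libraries had 68.8, 116, 192 and 126, and MG-NP libraries had 198, 554, 237 and 274, so every MG-NP library exceeded every MG-N library while MG-NP overlapped MG-WT. Tumors had 25.0, 14.8, 32.3 and 9.34 in T-N and 22.4, 25.6, 31.2 and 27.5 in T-NP, below every gland. The fall from gland to tumor was 6.13-fold in N mice (limma adjusted p = 0.00184) and 10.6-fold in NP mice (adjusted p = 8.98e-05). Its lower level in MG-N than in MG-WT was close to the 2-fold threshold (log2 -1.03, adjusted p = 0.0228). That call was lost without MG-WT replicate 2 (adjusted p = 0.0723) or replicate 3 (adjusted p = 0.065), and without MG-N replicate 1 the difference was -0.77. With edgeR and with DESeq2 it was -0.94, under the 2-fold threshold, so that each of these called 7 of the 10 FGF genes in this comparison.

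Fgf18, a ligand known for its part in cartilage and bone growth and located at chr11:33117430-33147400 on the minus strand, had few reads in every group. It was 16.6, 16.6 and 17.6 in MG-WT, between 7.51 and 24.7 in MG-N, between 7.58 and 34.9 in MG-NP and between 6.10 and 9.09 in T-NP. In T-N it was 3.41, 1.05, 25.25 and 1.17, with replicate 3 far above the others. Without that library Fgf18 was called lower in T-N than in MG-N (log2 -2.76, limma adjusted p = 0.00406), and it was also called there with all 5 groups in a single fit (log2 -1.94, adjusted p = 0.0196). With only the 2 groups compared in the fit and all their libraries, no comparison of Fgf18 passed both thresholds, and it was under the filter of 10 counts in both comparisons with T-NP. In T-NP against MG-NP, 7 alternative settings did test it (log2 -1.59 to -1.17), and it was called lower in 1 of them.

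**Figure D2:**
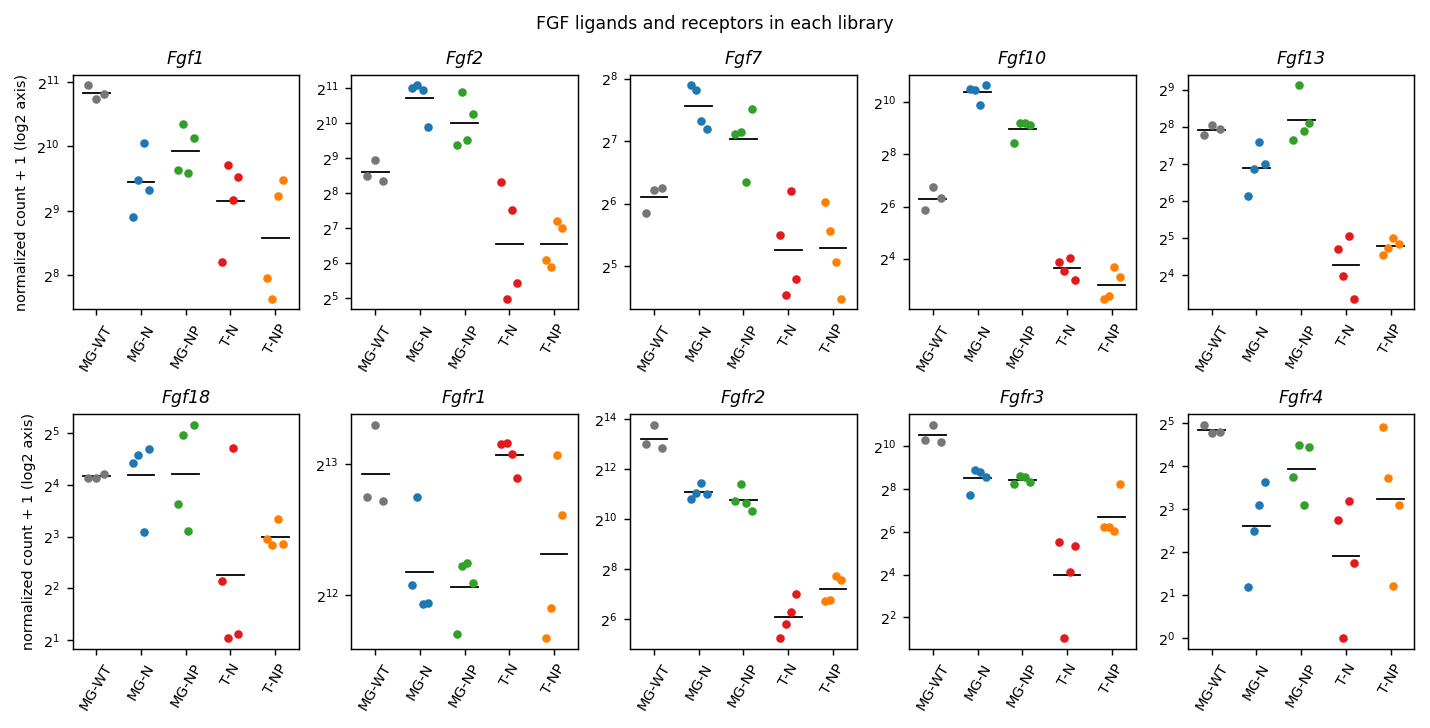
Normalized count + 1 (vertical axis, log2) of the 10 FGF ligand and receptor genes in each of the 19 libraries (points, by group on the horizontal axis), with the group mean on the log scale as a line. Fgf10 was 965 to 1616 in MG-N and 4.49 to 15.2 in the 8 tumors, and Fgfr2 was 1278 to 2771 in the glands of tumor-bearing mice and 36.4 to 206.5 in tumors.

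Of the receptors, Fgfr2 had the steepest order of groups. Fgfr2, whose epithelial splice form binds Fgf7 and Fgf10, lies at chr7:130162451-133123350 on the minus strand, and 314 bases of its exons overlap Ctbp2 on the same strand. Its normalized count was 8215, 14203 and 7349.6 in MG-WT. MG-N libraries had 1802, 2120.5, 2771 and 2080.4, and MG-NP libraries had 1703, 2701, 1595 and 1278, all below MG-WT. Tumor libraries had 36.4, 54.8, 76.8 and 125 in T-N and 103, 107, 206.5 and 185 in T-NP, all below the glands. Fgfr2 was 4.38-fold lower in MG-N than in MG-WT (limma adjusted p = 1.73e-04) and 5.43-fold lower in MG-NP (adjusted p = 0.00108). It fell 32.3-fold from MG-N to T-N (log2 -5.01, interval -5.81 to -4.22, adjusted p = 4.76e-05) and 12.1-fold from MG-NP to T-NP (log2 -3.60, interval -4.30 to -2.90, adjusted p = 4.41e-05). The counts are per gene and do not separate the epithelial from the mesenchymal splice form.

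Fgfr3, a receptor known for restraining bone growth and expressed in epithelia, lies at chr5:33721674-33737068 on the plus strand. Its exons overlap G630022F23Rik on the other strand over 998 bases. It was 1253, 2049 and 1173 in MG-WT. The MG-N libraries had 208, 476, 440.4 and 376, and the MG-NP libraries 303, 391, 375 and 319. In tumors it was 44.3, 1.05, 16.2 and 39.7 in T-N and 72.9, 74.4, 64.9 and 301 in T-NP. Each T-NP library was above each T-N library, and T-NP replicate 4 was close to the lowest MG-NP library (303). Fgfr3 was 4.03-fold lower in MG-N than in MG-WT (limma adjusted p = 8.93e-04) and 4.18-fold lower in MG-NP (adjusted p = 6.09e-04). It fell 22.5-fold from MG-N to T-N (adjusted p = 0.00367) and 3.37-fold from MG-NP to T-NP (adjusted p = 0.0117).

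Fgfr1, the receptor prominent in mesenchymal cells and located at chr8:25513654-25575718 on the plus strand, was not lower in tumors than in the matching glands. Its normalized count was 6869.9, 10093 and 6729 in MG-WT, while MG-N had 4337, 6882, 3917 and 3930.0 and MG-NP had 3348, 4772, 4857 and 4363. It was 9113, 9177, 8627 and 7625 in T-N, above every MG-N library. In T-NP it was 3268, 3828, 8574 and 6250.3, a range that covered all of MG-NP. The rise from MG-N to T-N was 1.86-fold (log2 0.90, interval 0.45 to 1.34, limma adjusted p = 0.00537), under the 2-fold threshold, and it passed that threshold without MG-N replicate 2 (log2 1.09).

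Fgfr4, located at chr13:55152640-55168759 on the plus strand, had 52 to 71 reads in the MG-WT libraries and at most 26 in any other library. It was 30.3, 26.4 and 26.9 in MG-WT, 1.27, 4.60, 7.51 and 11.3 in MG-N, with 12.4, 21.4, 7.58 and 20.7 for MG-NP. Tumor libraries had 5.68, 0, 8.08 and 2.33 in T-N and 29.15, 12.2, 1.30 and 7.49 in T-NP. Only the difference between MG-N and MG-WT was called (log2 -2.25, limma adjusted p = 0.00849), and Fgfr4 was under the count filter in both comparisons with T-N.

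Levels of different genes were compared as normalized counts per kilobase of merged exon. Among the 4 receptors, Fgfr1 held 38.0% to 43.6% of the summed level per kilobase in MG-WT libraries and Fgfr2 held 45.5% to 51.1%. In MG-N, Fgfr1 held 54.4% to 71.8% and Fgfr2 21.2% to 36.8%, and in MG-NP the ranges were 60% to 71.7% and 20.1% to 32.5%. In tumors Fgfr1 was almost the whole receptor pool, with 97.7% to 99.4% in T-N and 91.1% to 96.7% in T-NP. Fgfr2 held 0.38% to 1.53% in T-N and 2.23% to 2.78% in T-NP. Among the 5 secreted ligands, Fgf1 led in MG-WT with 70.2% to 78.9%, and in tumors with 44.9% to 91.4% in T-N and 55.4% to 80.0% in T-NP. In MG-N, Fgf10 held 27.9% to 52.1% and Fgf2 20.7% to 38.8%, while in MG-NP Fgf1 held 33.4% to 39.2% and Fgf10 17.9% to 31.2%. The summed ligand level per kilobase was 673 to 845 in MG-N, 369 to 714 in MG-NP, 119 to 179 in T-N and 65.3 to 162 in T-NP. These shares are descriptions and were not tested.

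**Figure D3:**
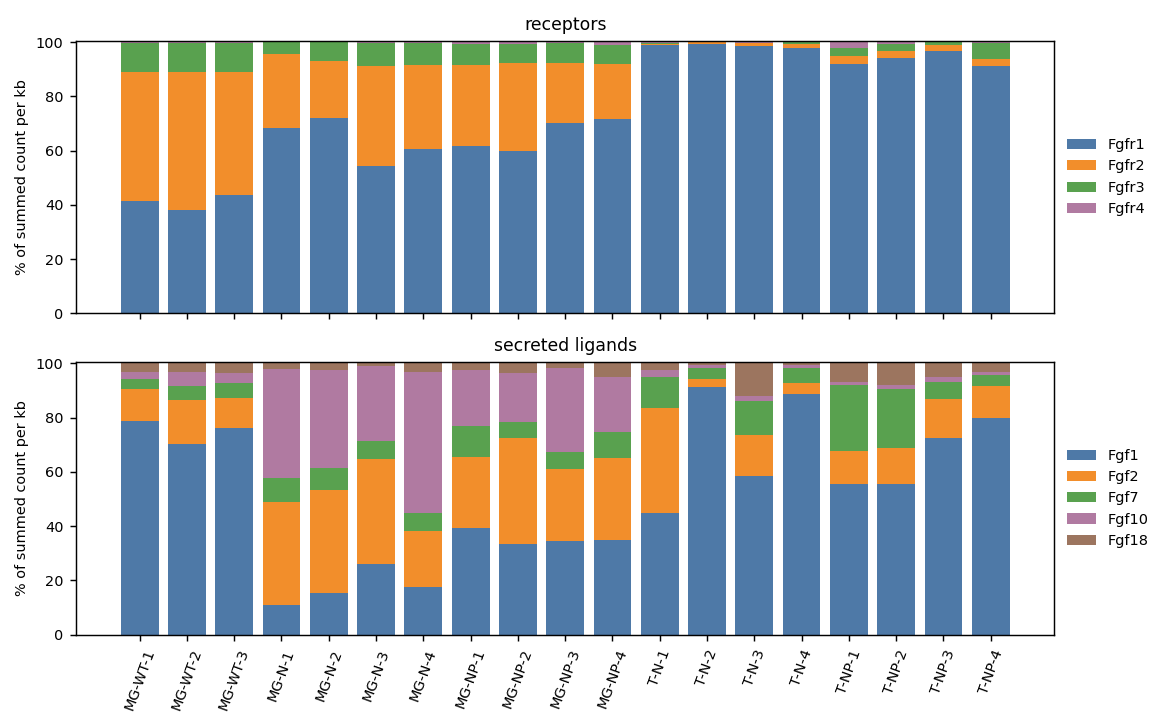
Share of each gene in the summed normalized count per kilobase (vertical axis, percent) of the 4 FGF receptors (top) and of the 5 secreted FGF ligands (bottom) in each of the 19 libraries (horizontal axis). Fgfr1 rises from 38.0% to 43.6% of the receptor pool in MG-WT to at least 91.1% in every tumor, and Fgf10 holds at least 17.9% of the ligand pool in every gland of tumor-bearing mice.

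The first comparison asks how the gland of a tumor-bearing mouse differs from a wild-type gland. A gene was called when its Benjamini-Hochberg adjusted p from limma, over all genes tested, was below 0.05 and its change at least 2-fold. For MG-N set against MG-WT, 3 of the 10 genes (Fgf2, Fgf7 and Fgf10) were called higher, with 19.1% of all genes tested called higher, and 5 (Fgf1, Fgf13, Fgfr2, Fgfr3 and Fgfr4) were called lower, with 17.9% of all genes called lower. For MG-NP set against MG-WT, 2 genes (Fgf2 and Fgf10) were called higher against 16.4% of all genes, and 2 (Fgfr2 and Fgfr3) lower against 16.2%. Both comparisons share the same 3 MG-WT libraries. Beside these shares of all genes called, the count of members says little beside the sizes given above, and the exact permutation test on 3 against 4 libraries cannot go below p = 0.0571 for any single gene. The adipocyte and immediate early markers moved with this contrast in every library, as given above, and the summed basal epithelial markers were 57089 to 69995 in MG-WT, with all 7 above 10 counts, against 9852 to 22699 in MG-N and 8811 to 19623 in MG-NP. Luminal markers were also lower in the glands of tumor-bearing mice, with sums of 74097 to 86972 in MG-WT, 12924 to 30226 in MG-N and 8759 to 27827 in MG-NP. Fibroblast markers went the other way, at 41088 to 67635 in MG-WT, 147275 to 492754 in MG-N and 68299 to 154968 in MG-NP, and all 8 luminal and all 8 fibroblast markers were above 10 counts in every library. The part of these differences in the FGF results was not tested.

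The second comparison sets the tumors of N mice against MG-N and those of NP mice against MG-NP. As given in the opening, T-N and most MG-N libraries differed in Fsp-Cre and in the p53 allele. In N mice this was not separated from the difference between tumor and gland. In T-N against MG-N, none of the 9 genes tested was called higher, where 12.8% of all genes were, and 6 (Fgf2, Fgf7, Fgf10, Fgf13, Fgfr2 and Fgfr3) were called lower, where 22.3% of all genes were. In T-NP against MG-NP, none of 9 was called higher against 14.7% of all genes, and 7 (the same 6 and Fgf1) were called lower against 24% of all genes. The median log2 change of the members tested was -2.62 in N mice and -1.75 in NP mice, beside -0.050 and -0.071 over all genes. For every gene called lower the gland and tumor ranges did not overlap, and the two-sided exact permutation p was 0.0286, the smallest that 4 against 4 libraries can give. This p follows from the lack of overlap. The share of all genes without overlap was not computed, so neither sets the FGF genes apart. The white adipocyte markers fell with these genes, as given above, while the fibroblast markers summed to 147275 to 492754 in MG-N, 68299 to 154968 in MG-NP, 30016 to 271282 in T-N and 27748 to 57698 in T-NP, with all 8 above 10 counts in every library. Basal epithelial markers summed to 1339 to 4934 in T-N and 1959 to 3419 in T-NP, with 5 and 6 of 7 above 10 counts in every library, and luminal markers to 99092 to 182381 and 108722 to 151437, against 8759 to 30226 in the glands of tumor-bearing mice. The part of these cell types in the fall of the FGF genes was not tested.

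**Figure D4:**
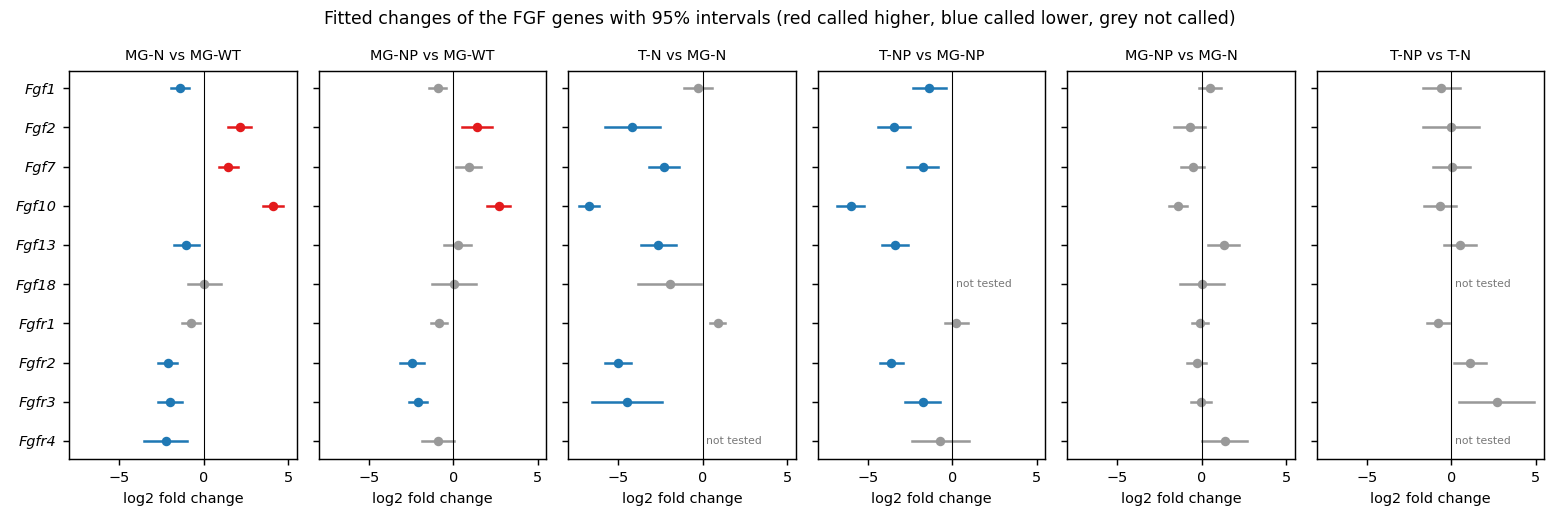
Fitted log2 fold change (horizontal axis, points) with its 95% interval (bars) for the 10 FGF genes (vertical axis) in 6 comparisons, with red for called higher, blue for called lower and grey for not called. Fgf10 moved from 4.09 in MG-N against MG-WT to -6.74 in T-N against MG-N, and no gene is coloured in either comparison of NP with N.

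The third comparison sets NP against N mice, which differ by mutant p53 in fibroblasts. As given in the opening, most MG-N libraries lacked Fsp-Cre, whereas the T-N libraries lacked the p53 allele that Cre turns into the mutant. The gland and tumor contrasts thus have different controls, and these parts were not separated from mutant p53. In MG-NP against MG-N, limma called none of the 10 genes and none of 18563 genes in all (0%), with 3 members and 1950 genes at an unadjusted p under 0.05. edgeR on the recovered reads also called none, and DESeq2 called 526 genes, among them Fgf10 and Fgf13. Fgf10 was lower in MG-NP in all 4 libraries (log2 -1.40, interval -1.92 to -0.88, limma adjusted p = 0.305, edgeR adjusted p = 0.193, DESeq2 adjusted p = 5.89e-06), and over all alternatives its adjusted p ran from 5.89e-06 to 0.554. Without MG-NP replicate 3, the only MG-NP library with little muscle signal, limma called it (log2 -1.47, adjusted p = 0.034). In that setting limma also called 297 genes higher and 21 lower of 18910 tested, so the call was not particular to Fgf10. Fgf13 was higher in MG-NP in all 4 libraries (log2 1.30, interval 0.39 to 2.21, limma adjusted p = 0.339, edgeR adjusted p = 0.264, DESeq2 adjusted p = 0.047, range over alternatives 0.047 to 0.617). The Fgf13 difference was 0.99 without MG-NP replicate 2, which had its highest count and the highest muscle marker sum. For each of these 2 genes the exact permutation p was 0.0286, before any adjustment for the 10 genes. Fgfr4 (log2 1.35, adjusted p = 0.462) was the third member with a low unadjusted p, and its ranges overlapped. The fibroblast score, the mean log2 level of 8 markers, was 13.49 to 14.77 in MG-N and 12.55 to 13.31 in MG-NP, without overlap, although the summed counts overlapped (147275 to 492754 against 68299 to 154968). The adipocyte sums overlapped and the skeletal muscle sums were higher in MG-NP in all but replicate 3, and with the muscle score as covariate the differences were -1.26 for Fgf10 (adjusted p = 0.308) and 0.97 for Fgf13 (adjusted p = 0.554). The part of the fibroblast and adipocyte markers in the Fgf10 and Fgf13 values was not tested.

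In T-NP against T-N, limma called none of the 8 genes tested and 7 of 16638 genes in all (0.0421%), with 3 members and 1210 genes at an unadjusted p under 0.05, while edgeR called none of all genes and DESeq2 86, no member among them. The 3 members were receptors. Fgfr3 was higher in T-NP in all 4 libraries (log2 2.68, interval 0.47 to 4.90, limma adjusted p = 0.681, exact permutation p = 0.0286 before adjustment), and without T-N replicate 2, whose count of 1.05 was the lowest, the difference was 1.70. Fgfr2 was 2.15-fold higher (interval 0.15 to 2.06 on the log2 scale, adjusted p = 0.681) and Fgfr1 1.69-fold lower (interval -1.41 to -0.11, adjusted p = 0.681), with overlapping ranges. For Fgf10 and Fgf13, which separated the glands, the tumor differences were -0.66 (interval -1.59 to 0.27) and 0.50 (interval -0.43 to 1.44), with overlapping ranges.

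Whether the change from gland to tumor itself differed between the genotypes was tested over the 16 libraries of tumor-bearing mice. Its N part holds the same mix of N genotypes as the second comparison. limma called none of the 10 genes and none of 19367 in all (0%), with 2 members and 1536 genes at an unadjusted p under 0.05. edgeR called none, and DESeq2 called 325 genes, no member among them. The 2 members were Fgfr2 (1.41, interval 0.37 to 2.45, adjusted p = 0.518) and Fgfr3 (2.74, interval 0.42 to 5.05, adjusted p = 0.556), both with the smaller fall in NP mice. The interaction was 0.74 for Fgf10 (interval -0.20 to 1.67) and -1.06 for Fgf1 (interval -2.32 to 0.20), so the Fgf1 call in NP tumors alone is not shown to differ from N tumors.

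Beyond these 10 genes, 52 other genes of the pathway in 4 lists were examined. Of the 11 targets and feedback inhibitors of ERK, 7 were called lower and none higher in MG-N relative to MG-WT, with a median log2 change of -1.21, and again 7 lower and none higher in MG-NP, with a median of -1.62. In T-N against MG-N, 7 of 11 were called higher and none lower, with a median of 1.39, and in T-NP against MG-NP the count was again 7, with a median of 1.30. All genes tested had medians of 0.023, 0.018, -0.05 and -0.071 in these 4 comparisons. The shares of all genes called in the same direction were 17.9% and 16.2% lower against MG-WT, and 12.8% and 14.7% higher in the tumors. The largest rises were those of Etv1, an ETS transcription factor, at 4.30 in N and 5.25 in NP mice (limma adjusted p = 2.29e-04 and 3.42e-06), and of Etv5, at 3.65 and 4.18 (adjusted p = 1.19e-04 and 9.17e-06). Etv5 was 11309, 14099.8, 13466 and 15006 in T-N and 9312, 11469, 10675 and 9119 in T-NP, against 387 to 1974 in the glands of tumor-bearing mice. Dusp6, the phosphatase that inactivates ERK, was lower in MG-N than in MG-WT (log2 -2.55, adjusted p = 3.80e-05), as it was in MG-NP (-2.97, adjusted p = 1.45e-04), and with Fgf17 it had the largest falls of the lists. It was 8653, 9620.0 and 11893 in MG-WT, 1424 to 2509 in MG-N and 901 to 1547 in MG-NP. In tumors it was 12807, 24286, 13154 and 30366 in T-N and 14926, 20366, 17716.5 and 13338 in T-NP, above every MG-WT library, so its order of groups differed from those of all 10 ligands and receptors. These genes answer ERK from any receptor, including the neu transgene, and immediate early genes, whose values are given above, were also high in MG-WT. Neither was separated from FGF input by a test here.

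The upstream 250 bases of 2 feedback genes that rose in both kinds of tumor, chosen by the same conditions as the ligand windows and shown to be set beside them, held no match to any of the 6 motifs.
Dusp6, chr10:99262981-99263230, plus strand: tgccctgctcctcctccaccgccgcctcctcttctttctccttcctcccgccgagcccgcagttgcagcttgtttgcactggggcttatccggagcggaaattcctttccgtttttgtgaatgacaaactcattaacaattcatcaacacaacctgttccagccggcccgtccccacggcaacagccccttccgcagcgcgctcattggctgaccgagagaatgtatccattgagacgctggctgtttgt
Spry2, chr14:105896820-105897069, minus strand: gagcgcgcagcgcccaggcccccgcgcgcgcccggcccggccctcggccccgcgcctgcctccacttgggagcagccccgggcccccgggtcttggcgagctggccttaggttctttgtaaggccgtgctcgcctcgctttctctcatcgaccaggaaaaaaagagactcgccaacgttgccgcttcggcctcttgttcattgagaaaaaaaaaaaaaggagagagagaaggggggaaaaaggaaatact
They were 56.4% and 62.4% G and C. Spry2, a Sprouty inhibitor of RAS signaling named here after its values were seen, was 2454 to 3689 in T-N and 1924 to 2319 in the T-NP libraries other than replicate 4, which had 2368.5, against 353 to 694 in the glands of tumor-bearing mice. It rose 5.75-fold in N and 5.11-fold in NP mice (limma adjusted p = 6.98e-05 and 1.94e-05).

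**Figure D5:**
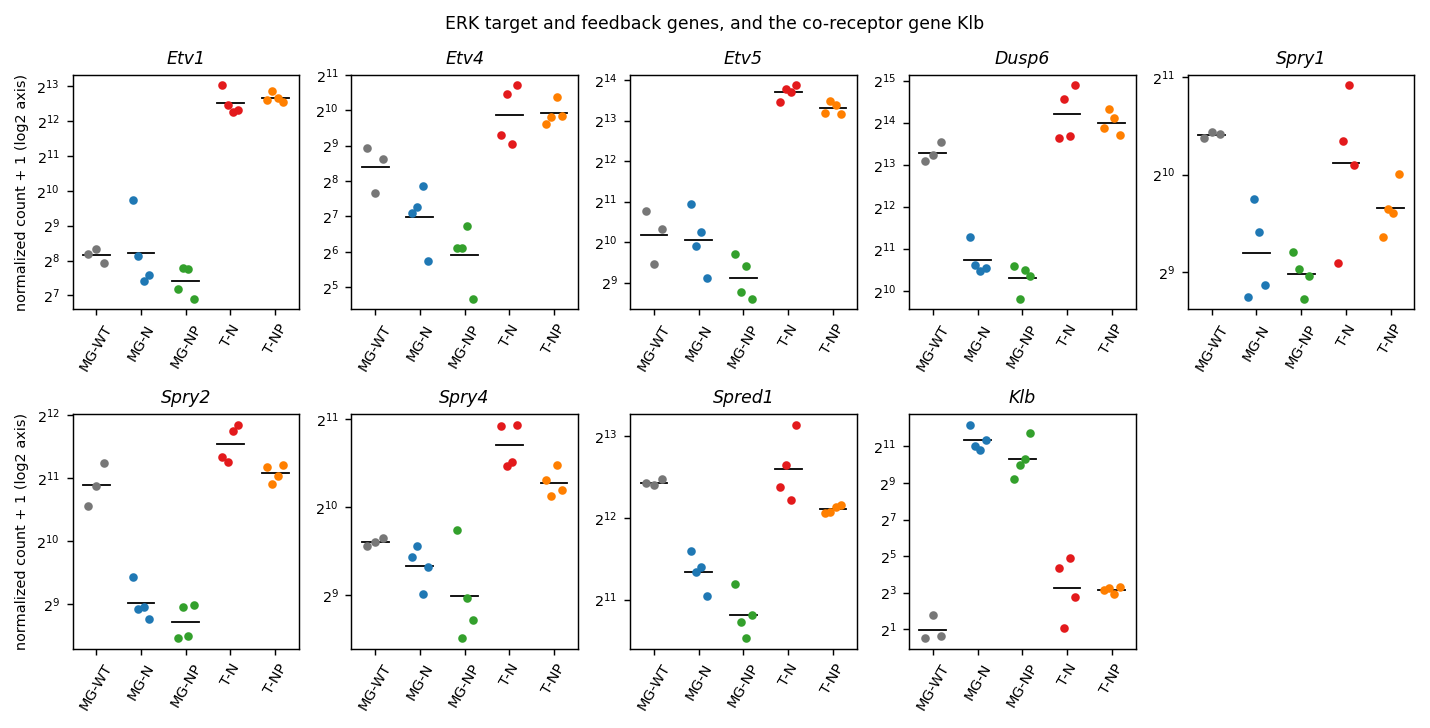
Normalized count + 1 (vertical axis, log2) of 8 of the 11 ERK target and feedback genes and of the co-receptor gene Klb in each of the 19 libraries (points, by group on the horizontal axis), with the group mean on the log scale as a line. Spred2, Spred3 and Il17rd are not drawn, and none of them was called between tumor and gland in either genotype. Dusp6 was 901 to 2509 in MG-N and MG-NP and 12807 to 30366 in the tumors, and Klb was at most 28.3 outside MG-N and MG-NP.

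Of the 16 co-receptors and binding proteins, 14 passed the count filter. By the same call rule 4 rose and 6 fell from MG-WT to MG-N, beside 19.1% and 17.9% of all genes, and 2 rose and 6 fell from MG-WT to MG-NP, beside 16.4% and 16.2%. Klb, which encodes the beta-Klotho co-receptor of the endocrine FGFs and is known from fat and liver, was 0.43, 2.44 and 0.52 in MG-WT, while MG-N had 4699.9, 2072, 1787 and 2644 and MG-NP had 584, 996, 1262 and 3392 (adjusted p = 1.45e-06 and 1.08e-04 for limma). It was 1.05 to 28.3 in T-N and 6.49 to 8.74 in T-NP, and its fall from the glands was called in both genotypes (adjusted p = 1.39e-04 and 1.77e-05). Gpc3, a cell-surface heparan sulfate proteoglycan, had the other named rise, 4.84-fold in MG-N (adjusted p = 0.00865) and 2.67-fold in MG-NP (adjusted p = 0.02), and the T-N libraries split, at 81.8, 4455, 293 and 3772. T-NP had 140.1, 84.2, 235 and 245, below every MG-NP library, and Gpc3 was called lower there than in MG-NP (log2 -2.33, adjusted p = 0.00203) but not in T-N against MG-N (-0.89, adjusted p = 0.579), and the interaction was not called (-1.44, adjusted p = 0.874). In tumors 2 of the 14 genes tested were called higher and 4 lower in N mice, beside 12.8% and 22.3% of all genes, and 3 higher and 6 lower in NP mice, beside 14.7% and 24%.

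Of the 16 other ligands, 11 were under the count filter when MG-N was compared with MG-WT, and 12 in each of the next 3 comparisons. Fgf17, a ligand of the Fgf8 family, was 51.6, 43.4 and 41.9 in MG-WT and between 1.91 and 8.66 in the glands of tumor-bearing mice, and was called lower in both (limma adjusted p = 1.07e-04 and 0.00285). Fgf14, an intracellular relative of Fgf13, was 42.2 to 146 in those glands, and in the tumors it had at most 3 reads in any library. Its fall was called in both genotypes (adjusted p = 1.26e-04 and 4.79e-05). Of the 9 adapters none was called higher in these comparisons, with 1 called lower in MG-N and 2 in MG-NP against MG-WT, 1 called lower in T-N, and none in T-NP. In the same order, the shares of all genes called lower were 17.9%, 16.2%, 22.3% and 24%. Those called higher were 19.1%, 16.4%, 12.8% and 14.7%. None of the 4 lists had a called gene in MG-NP against MG-N, in T-NP against T-N or in the interaction.

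Over the 19 libraries, the genes whose log2 level followed a member most closely, among 14773 others with a mean of at least 50 counts, were found as a description. Fgf10 was followed by Aoc3 (r = 0.994) and Zeb2 (r = 0.986), Fgfr2 by Tenm2 (0.989) and Lama3 (0.986), Fgf2 by Eif4e3 (0.975) and Akr1c14 (0.967), and Fgf13 by Rbm38 (0.960) and Hoxd9 (0.954). The values for Fgf7 were 0.957 with Cd34 and 0.952 with Nova1, for Fgfr3 0.937 with Meaf6 and 0.936 with Map3k6, and for Fgf1 0.914 with St7 and 0.893 with Gpc6. Fgf18 (Slc2a12 and Rnf150, both 0.870), Fgfr4 (0.801 with Slc44a2 and 0.799 with Pias1) and Fgfr1 (0.785 with Plk2 and 0.776 with Rtl10) had no gene as close. The 19 libraries fall into the 5 groups, so these values mainly order groups, and the MG-WT libraries also differ in depth.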

How the data were processed

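RNA was extracted from mammary gland and tumor tissue and sequenced as bulk libraries. Per the labels, a stranded total RNA kit was used, whereas the study's methods name an mRNA kit. The submitters' processing notes name TopHat2 2.1.1, Bowtie2 and GRCm38, and the counting tool, annotation and strand setting are not given in the sources used here. The authors deposited a gene table of signal values, namely counts divided by size factors. Whole reads were recovered by dividing by the smallest step of each library, and 100% of the values above 0 came out whole within 0.05 of a read. Depth was 20899152 to 62645459 reads per library, and intervals and p-values cover only the spread between libraries.

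Gene IDs were matched to GENCODE vM21 (45229 of 46078), which gave symbols, positions and merged exon lengths, and promoter windows came from RefSeq (8 of 10 members). Genes with at least 10 normalized counts in as many libraries as the smaller group were tested on log2(normalized count + 1) by limma 3.58.1 (R 4.3.3) with a trended prior, with only the libraries of the groups compared in each fit. Single members were also tested by a two-sided exact permutation test. A gene was called at an adjusted p under 0.05 and at least 2-fold. The scripts were tested on simulated data.

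Alternatives were pseudocounts of 0.5 and 5, no filter, a mean of at least 50 counts, TMM scaling, edgeR 4.0.16 and DESeq2 1.42.0 on recovered reads with the authors' size factors, no fold threshold, all 5 groups in a single fit, a replicate block, leaving out each library, averaging T-NP replicates 1 and 2, and the muscle score as a covariate in comparisons that hold MG-NP. On recovered reads edgeR called 7120 genes between MG-N and MG-WT, 6554 between MG-NP and MG-WT, 6240 in T-N against MG-N, 7025 in T-NP against MG-NP and none in the comparisons of NP with N.

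All 10 members were described. From the 4 pathway lists, each comparison contributed the 2 called genes that rose most and the 2 that fell most, and each member the 2 most correlated genes. Members and lists were chosen with earlier results of these data known.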

Additional observations from a re-analysis of the deposited data

Results flagged for a closer look

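In 5 of 40 sets of 4 libraries (10 FGF genes in 4 groups), the highest or lowest library lay farther from the rest than Dixon's 95% critical value for 4 samples allows, and chance flags about 1 in 20 such sets. Fgf2 was 946.5 in MG-N replicate 4, below 1982 to 2165 in the others. Fgf10 was 347.2 in MG-NP replicate 1, below 554 to 589.5. Fgf18 was 25.25 in T-N replicate 3, above 1.05 to 3.41, and this library also had the highest fibroblast and muscle marker sums of the T-N libraries (271282 and 26227). Fgfr1 was 6882 in MG-N replicate 2, above 3917 to 4337. Fgfr3 was 300.9 in T-NP replicate 4, above 64.9 to 74.4.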

How the results depend on the processing

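Counts of FGF genes called stayed within 1.5 times of the reported count under 267 alternative values and moved further under 11. In MG-NP against MG-WT, the genes called higher numbered 1 with all 5 groups in a single fit and 0 once the muscle score entered as covariate, and those called lower numbered 4 without the fold threshold. That covariate did not overlap between these groups, with scores of 2.76 to 3.03 in MG-WT and 9.30 to 17.27 in MG-NP. Nor did it overlap between MG-NP and T-NP (3.01 to 8.62). The values fitted with it in these 2 comparisons therefore rest on extrapolation between the groups. Under it Fgf2 went from 1.41 to -0.24 and Fgf7 from 0.92 to -0.53, neither called, and in T-NP against MG-NP the genes called lower numbered 4. With this covariate the calls for Fgf10 (2.71, adjusted p = 0.0713), Fgfr2 (-2.93, 0.0658) and Fgfr3 (-2.0, 0.0796) in MG-NP against MG-WT were lost and Fgf1 and Fgfr4 were called lower, and Fgf1 (-0.21, 0.81), Fgf7 (-1.73, 0.108) and Fgfr3 (-1.33, 0.254) were lost in T-NP against MG-NP. In T-N against MG-N, Fgfr1 made 1 called higher without the fold threshold. In MG-NP against MG-N, DESeq2 called 1 higher (Fgf13) and 1 lower (Fgf10). The causes of these shifts were not tested.

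Leaving out 1 library at a time gave, for MG-N against MG-WT, 3 higher and 4 to 5 lower, for MG-NP against MG-WT 1 to 3 higher and 2 to 3 lower, for T-N against MG-N 0 to 1 higher and 6 to 7 lower, for T-NP against MG-NP 0 higher and 6 to 8 lower, and for MG-NP against MG-N 0 higher and 0 to 1 lower. The 1 higher in MG-NP against MG-WT came without MG-WT replicate 1 or 3, while Fgf7 joined without MG-NP replicate 3 and Fgf1 without MG-NP replicate 2, the 1 higher in T-N against MG-N without MG-N replicate 2, and the 1 lower in MG-NP against MG-N without MG-NP replicate 3. Replicate numbers did not pair the libraries (correlations of deviations from -0.28 to 0.319), and with the replicate block the counts were 3 and 5, 2 and 2, 0 and 6, and 0 and 7 in the first 4 comparisons and 0 in the others.

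Among 27 changes with an unadjusted p of at least 0.05, 52 of 571 alternative values had the other sign, in 12 of the changes. Depth limits Fgf18 and Fgfr4, which had few reads in most libraries.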
